A study of Danio rerio with 14 samples.

Results

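H3K27ac, the acetylation of histone H3 at lysine 27, was compared directly between zebrafish embryos without the transcription factor Pou5f3 (MZspg) and embryos without the transcription factor Sox19b (MZsox19b). The compared regions were strong peaks of one mutant at which the other mutant had no peak of any height, and regions shared by both mutants whose rank in the peak list differed. A peak was called strong when it was among the 10000 highest of its library by fold enrichment, the ratio of ChIP signal to local background. By this rule, 468 MZspg-only peaks and 590 MZsox19b-only regions were found, together 1058 among 437115 peaks in the H3K27ac lists of the mutants and 681659 peaks of all lists in the series. The question was where the H3K27ac landscapes of the mutants diverged, and whether the diverging regions were marked in the wild type (WT).

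The comparison rested on 1 MZspg library and 2 MZsox19b replicates, made from whole embryos at 4.3 hours post-fertilization (hpf), the age of WT dome stage. Per the labels, all groups had the AB/TL strain background. MZspg embryos carried the spg m793 allele and MZsox19b embryos the sox19b m1434 allele, both without functional maternal and zygotic product of the mutated gene. The MZspg line is kept alive by injecting Pou5f3 mRNA at the 1-cell stage in each generation. No treatment was applied to any group. WT H3K27ac and the H3K4me3 libraries of WT, MZspg and MZsox19b, 1 each, gave the state of the regions in measurements that the rule did not use. Mutant stages were set by WT embryos of the same age, so the genotypes were matched by age and not necessarily by developmental state. The study reports that morphological landmarks appeared late in MZsox19b after the early cell cycles. It also reports delayed transcription of the embryo's own genes in all its mutants, most strongly in MZsox19b. Whole embryos also hold the enveloping layer and the yolk syncytial layer, which a peak list cannot separate from the blastoderm.

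As background, H3K27ac marks nucleosomes next to enhancers and promoters in use, whereas H3K4me3, the trimethylation of lysine 4, sits chiefly at promoters. Pou5f3, a POU-domain protein related to mammalian Oct4, and Sox19b, an HMG-box protein of the SoxB1 family, are loaded into the egg as mRNA and bind DNA around the time when the embryo starts to transcribe its own genome. Proteins of these families can bind next to each other, and both factors have been studied as openers of early embryonic enhancers. A region with an H3K27ac peak in one mutant and none in the other is a difference between the peak lists of embryos lacking one factor and embryos lacking the other. Whether the chromatin of the genotypes differs at each such region was not tested.

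The lists differed in length, which bears on every count. On chromosomes 1 to 25, the MZspg list covered 57.17 Mb with 122893 peaks. MZsox19b replicate 1 covered 89.27 Mb with 141202 peaks, and replicate 2 covered 109.06 Mb with 173020. The fold enrichment of the 10000th peak was 6.36 in MZspg, 8.33 in replicate 1, 7.38 in replicate 2 and 5.53 in WT, so the fold scales of the libraries differ. Regions were called by rank, and fold values are printed as each list gives them. Strong peaks of either MZsox19b replicate were nearly always present in the other, with 0 of 10000 strong replicate 1 peaks missing from replicate 2 (a limit of 3 counts, or 0.03%) and 8 of 10000 strong replicate 2 peaks missing from replicate 1. Peak lists hold no read depth, but the study's reporting summary gives it. More read pairs are listed there for the MZspg H3K27ac library than for either MZsox19b replicate. The pairs of that library aligned once lie between those of the replicates. Among the H3K4me3 ChIP libraries, MZspg has the fewest read pairs. How depth shaped the lists was not tested.

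Of the 10000 strong MZspg peaks, 617 had no peak in MZsox19b replicate 1, 539 had none in replicate 2 and 468 had none in either. The last are the MZspg-only peaks, 4.68% of the strong MZspg peaks. A peak in exactly 1 replicate was found for 220, of which 149 were in replicate 2, the longer list, and 71 in replicate 1. Conversely, 8089 regions were strong in both MZsox19b replicates, and 590 of them, 7.29%, had no MZspg peak. Taken singly, 875 strong peaks of replicate 1 and 950 of replicate 2 had none. These counts are what the rule gives and were not tested. Between the MZsox19b replicates the counts were 0 and 8, but those were taken against longer lists and within 1 genotype. The spread between MZspg libraries is unknown, so they cannot show an excess over it. With a single MZspg library, the only spread available for a fit was that between the MZsox19b replicates, so no fit was made.

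The regions found in a single mutant were mostly of moderate strength. The MZspg-only peaks had a median rank of 7360 and ranged from rank 239 to rank 9997. Fold enrichment had a median of 7.75 and reached 27.9. Among the 1000 strongest MZspg peaks, 0.30% were MZspg-only, against 9.70% among ranks 9001 to 10000. The MZsox19b-only regions reached further up the list. They had to be strong in both replicates, which by itself favours higher ranks, so the median ranks of the sets cannot be set against each other. Their median rank was 5978.5 in replicate 1 and 6120.5 in replicate 2, the highest stood at ranks 8 and 41, and the share without an MZspg peak went from 1.90% among the first 1000 regions to 14.4% among regions 7001 to 8000. At the border of the rule, the last MZspg-only peak inside had rank 9997 and the first outside rank 10021, both with 6.36-fold enrichment. The last MZsox19b-only region inside had ranks 9983 and 9450, and the first outside ranks 8680 and 10017.

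**Figure D1:**
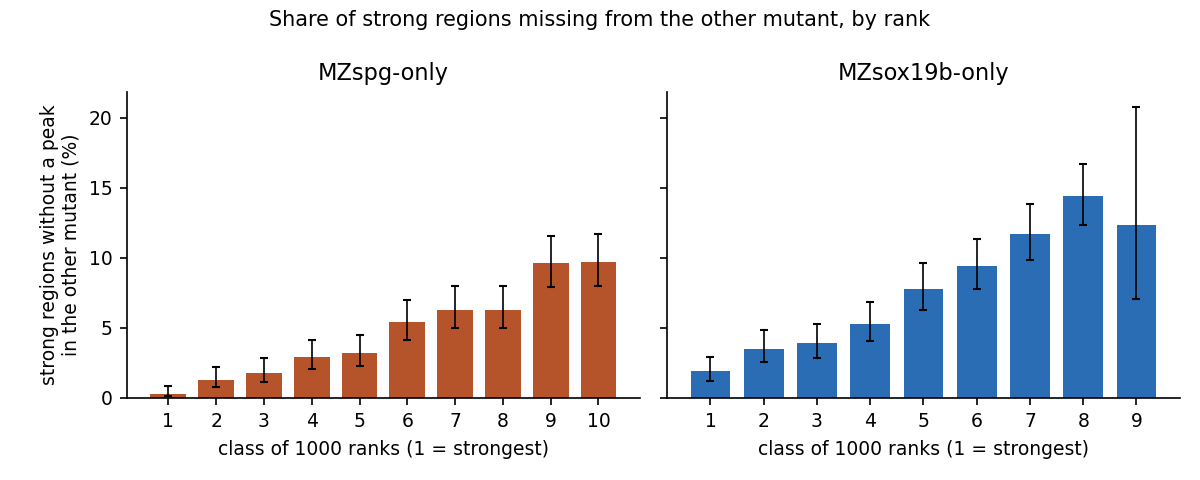
Percent of strong regions without any peak in the other mutant (vertical axis) in successive classes of 1000 ranks from the strongest on (horizontal axis), for MZspg peaks (left) and for regions strong in both MZsox19b replicates (right, where the 9th class holds 89 regions). Bars are shares with Wilson 95% intervals, and both panels climb from the strongest class (0.30% and 1.90%) towards the weaker classes (9.70% in the 10th MZspg class, 14.4% in the 8th MZsox19b class).

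Most members lay well apart from the peaks of the other mutant. The nearest MZspg peak lay at a median distance of 4713.5 bp from the MZsox19b-only regions, and within 1000 bp for 19.5% of them. The MZspg-only peaks lay at a median of 5625.5 bp from the nearest peak of replicate 1 and 5255.5 bp from that of replicate 2. MZspg-only peaks had a median width of 1041 bp, against 1208 bp for strong MZspg peaks shared with both replicates. MZsox19b-only regions had a median width of 1729 bp, against 1968 bp for those shared with MZspg. The latter difference lay on chromosome 4, where the medians were 1092.5 bp and 1722 bp, whereas elsewhere MZsox19b-only regions were the wider, with 2131 bp against 2009 bp.

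The WT state separated the sets. A WT H3K27ac peak overlapped 530 of the 590 MZsox19b-only regions, 89.8% (Wilson 95% interval 87.1 to 92.0), but 231 of the 468 MZspg-only peaks, 49.4% (44.9 to 53.9). Among strong regions shared with the other mutant, the shares were 99.2% for MZsox19b and 97.0% for MZspg. Weighting the shared regions to the rank classes of the members changed these to 98.7% and 95.6%. Most regions with H3K27ac in MZsox19b and not in MZspg were thus acetylated in WT too, while about as many MZspg-only peaks lacked WT H3K27ac (237) as had it. The 220 MZspg peaks found in exactly 1 replicate lay in between, with WT H3K27ac at 69.1%. The intervals cover counting error only, and neighbouring peaks are not independent. Taking the highest member of each group of members within 10 kb left 396 MZspg-only and 489 MZsox19b-only regions, of which 195 and 440 had WT H3K27ac.

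The share in MZspg-only peaks depended on how strength was measured. When peaks were ranked by −log10 q, which grows with the height of the read pileup as well as with enrichment, 759 MZspg-only peaks were found, of which 74.2% had WT H3K27ac, and 381 of the 468 were among them. For MZsox19b-only regions the corresponding values were 599 and 91.0%. Reading all lists down to the same covered length gave 1246 MZspg-only peaks among 10000, of which 65.7% had WT H3K27ac. It gave 733 MZsox19b-only regions among 8089, of which 91.0% had WT H3K27ac. In both settings the MZspg-only set was the larger by count. By −log10 q it was 759 of 10000 peaks against 599 of 8168 regions, so the shares were nearly equal. Which mutant had more such regions thus depended on the setting and on the base. In each of these settings the share remained below that of the MZsox19b-only regions.

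WT peaks at the members were weaker than WT peaks at shared regions. Of the 231 MZspg-only peaks with a WT peak, 14.3% had one among the 10000 highest of WT, and the median WT rank was 31665 with a fold enrichment of 3.28. Of the 530 MZsox19b-only regions with a WT peak, 33.6% had a strong one, with a median rank of 14786.5 and a fold enrichment of 4.496. Among shared strong regions with a WT peak, strong WT peaks overlapped 67.6% of those of MZspg and 76.2% of those of MZsox19b. These shares were not weighted by rank, and MZspg-only peaks also ranked lower in MZspg itself (median 7360, against 4790.5 for shared peaks). The 178 MZsox19b-only regions with a strong WT peak are regions highly acetylated in WT and in both MZsox19b replicates, at which MZspg had no peak. The opposite set, strong in WT and MZspg with no peak in either of the longer MZsox19b lists, held 33.

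H3K4me3 gave a second measure that the rule had not used. An H3K4me3 peak of the same genotype overlapped 192 MZspg-only peaks, 41.0% (36.7 to 45.5), and 261 MZsox19b-only regions, 44.2% (40.3 to 48.3). Both shares were below those of shared strong regions, which were 73.6% in MZspg and 82.6% in MZsox19b, or 66.2% and 78.9% when weighted to the members' rank classes. In this ranking, regions that differed between the mutants overlapped a promoter mark less often than those held in common. The size of the difference depended on the ranking in MZspg. By −log10 q, H3K4me3 overlapped 65.6% of 759 MZspg-only peaks against 74.5% of those shared, and 47.2% of 599 MZsox19b-only regions against 82.2%, so the order of the sets was turned. By fold enrichment, 55.6% of MZspg-only peaks and 47.8% of MZsox19b-only regions had no H3K4me3 peak in any genotype, against 17.9% and 13.9% of shared regions. The H3K4me3 lists were of unequal length, with 22502 peaks in MZspg, 42572 in MZsox19b and 53634 in WT. With each reduced to its 22502 highest peaks, the share in MZsox19b-only regions was 26.3%, and that in MZspg-only peaks stayed at 41.0%, as the MZspg list is the shortest.

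H3K4me3 differed between the mutants in the same direction as H3K27ac. Of the MZspg-only peaks, 134 had H3K4me3 in MZspg alone of the mutants, 8 in MZsox19b alone, 58 in both and 268 in neither. Of the 590 MZsox19b-only regions, 246 had H3K4me3 in MZsox19b alone, 1 in MZspg alone, 15 in both and 328 in neither. For comparison, 12516 regions had a peak in all 3 mutant H3K27ac lists and a strong one in at least 1. Of these, 13.1% (1635) had H3K4me3 in MZsox19b but not MZspg, and 1.74% (218) in MZspg but not MZsox19b. MZsox19b alone was thus the commoner case there too. An MZspg H3K4me3 peak was found at 16 MZsox19b-only regions, 2.71%, against 69.4% of regions shared with MZspg. The MZspg H3K4me3 list was the shortest, and how far its length lowered this share was not tested. MZspg-only peaks had MZspg H3K4me3 in 41.0%, and the longer MZsox19b and WT lists overlapped 14.1% and 23.3% of them. Where H3K27ac was missing from one mutant, H3K4me3 of that mutant was thus seldom present over all members. Among members with H3K4me3 of their own genotype, the other mutant had it at 58 of 192 MZspg-only peaks and at 15 of 261 MZsox19b-only regions.

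**Figure D2:**
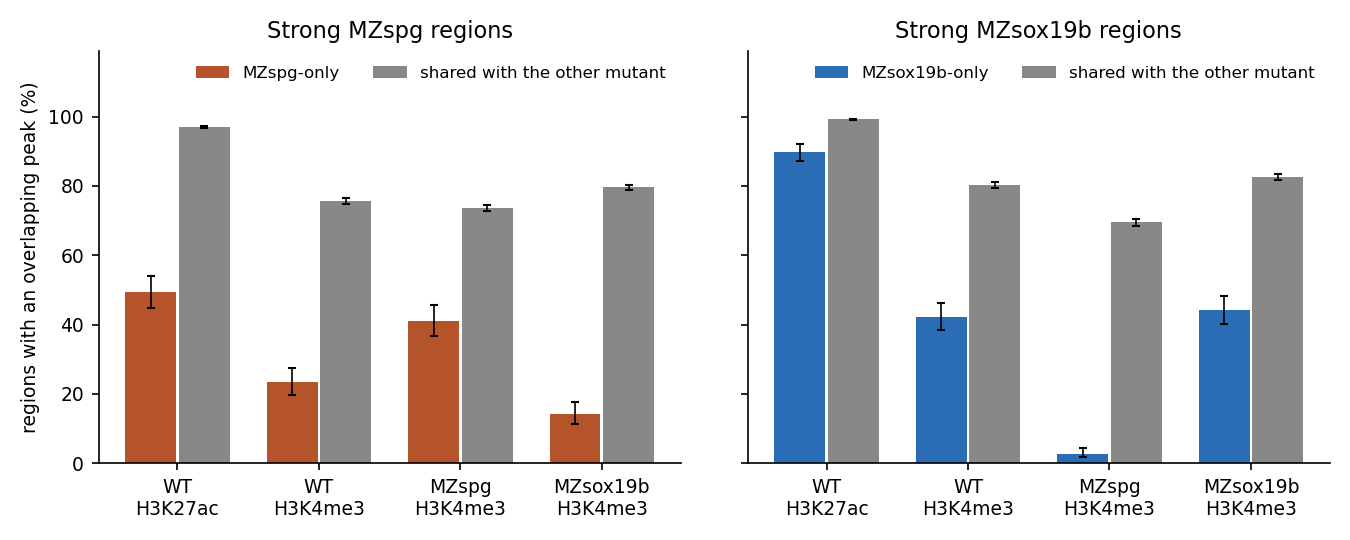
Percent of strong regions overlapped by a peak of each library named below the bars, for strong MZspg peaks (left) and regions strong in both MZsox19b replicates (right), with Wilson 95% intervals. Coloured bars are regions without a peak in the other mutant, and grey bars are regions shared with it. WT H3K27ac overlapped 49.4% of MZspg-only and 89.8% of MZsox19b-only regions, and MZspg H3K4me3 overlapped 2.71% of MZsox19b-only regions.

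WT H3K27ac and H3K4me3 together divided the members further. Among MZspg-only peaks, 74 had both WT marks, 157 had WT H3K27ac alone, 35 had WT H3K4me3 alone and 202 had neither. Of the 202 without either WT mark, 40.1% (81) had H3K4me3 in MZspg and 4.95% (10) in MZsox19b. These 81 regions carried both marks in MZspg and were without both in WT. Among MZsox19b-only regions, 241 had both WT marks, 289 had WT H3K27ac alone, 8 had WT H3K4me3 alone and 52 had neither. Of these 52, 11 had H3K4me3 in MZsox19b and 0 in MZspg, which allows a share of up to 5.77%. Of the 241 with both WT marks, 226 had no MZspg H3K4me3 peak. Most MZsox19b-only regions were therefore places with a WT mark and no MZspg H3K27ac peak, and 226 had both WT marks and no MZspg peak of either. The mirror case, both WT marks and no MZsox19b H3K4me3, held 45 of 74 MZspg-only peaks. These counts are not matched for list length, since the H3K4me3 list of MZspg holds 22502 peaks and that of MZsox19b 42572.

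The 8 highest MZspg-only peaks illustrate these classes. A peak at chr20:27746510-27751554 (danRer11) stood at rank 239 with 27.9-fold enrichment in MZspg. WT had 10.9-fold H3K27ac there, and H3K4me3 was 46.6-fold in WT and 67.5-fold in MZspg, with no MZsox19b peak of either mark. A peak at chr8:2505361-2506666 had rank 267 and 27.3-fold enrichment in MZspg, and rank 405 and 19.8-fold enrichment in WT. Its H3K4me3 was 64.1-fold in WT and 37.2-fold in MZspg, again without a peak in MZsox19b. Both are regions with strong WT marks at which none of the 3 MZsox19b lists had a peak. At chr19:46900077-46904725, rank 510, MZspg H3K27ac was 24.1-fold and WT 2.16-fold, and no genotype had H3K4me3.

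A different kind was represented by the peak at chr6:1389648-1390938, rank 1152. It had 19.2-fold H3K27ac and 63.6-fold H3K4me3 in MZspg, and no peak of either mark in WT or MZsox19b. Without WT H3K27ac were also chr3:32630658-32632415, with 19.8-fold H3K27ac in MZspg and H3K4me3 of 47.2-fold in MZspg, 16.0-fold in MZsox19b and 4.13-fold in WT, and chr3:12807314-12811573, with 19.2-fold H3K27ac and 3.03-fold H3K4me3 in MZspg. The remaining peaks, at chr4:12618708-12621621 (18.2-fold) and chr21:25401786-25406994 (17.7-fold), had weak WT H3K27ac of 2.91-fold and 2.62-fold and no H3K4me3.

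All 8 highest MZsox19b-only regions had a WT H3K27ac peak. The first, chr4:51840866-51843972, had ranks 8 and 41 and fold enrichments of 64.5 and 47.1 in the MZsox19b replicates, and 9.05 in WT. H3K4me3 was 195.9-fold in MZsox19b and 22.4-fold in WT, with no MZspg peak of either mark. The next, chr20:26416276-26430197, spanned 13922 bp with 43.8-fold and 33.2-fold enrichment in the replicates and 25.4-fold in WT, where it ranked 91. H3K4me3 was 182.6-fold in MZsox19b and 77.9-fold in WT. H3K4me3 in MZsox19b and WT without an MZspg peak was also found at chr16:15143093-15149460 (16.2-fold and 20.2-fold), chr15:14245653-14250085 (114.3-fold and 17.9-fold), chr4:34940775-34941353 (3.47-fold and 4.28-fold) and chr4:23125070-23126903 (126.3-fold and 21.9-fold). At chr12:44733464-44736373 the H3K27ac enrichment was 34.4-fold and 26.3-fold in the replicates and 18.9-fold in WT, with 2.40-fold H3K4me3 in MZsox19b. At chr4:42643652-42645819 it was 27.5-fold and 27.7-fold, against 10.4-fold in WT, with no H3K4me3.

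The MZsox19b-only regions gathered on chromosome 4, which in zebrafish is known for a long arm rich in repeats and zinc finger genes. Of the 590, 194 (32.9%, 29.2 to 36.8) lay on chromosome 4, against 13.8% of regions shared with MZspg. Of all strong MZsox19b regions on this chromosome, 15.8% had no MZspg peak, and the next highest chromosome, 14, had 10.1%. The share was 4.15% (10 of 241) up to position 30 Mb and 18.6% (184 of 989) beyond it. MZspg-only peaks lay on chromosome 4 about as often as shared MZspg peaks, at 8.55% and 8.25%. Along the chromosome their share was also higher beyond 30 Mb, with 6.27% (34 of 542) against 2.10% (6 of 286). Their highest chromosomal share was 7.53% (18 of 239), on chromosome 24, and both sets had members on all 25 chromosomes.

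**Figure D3:**
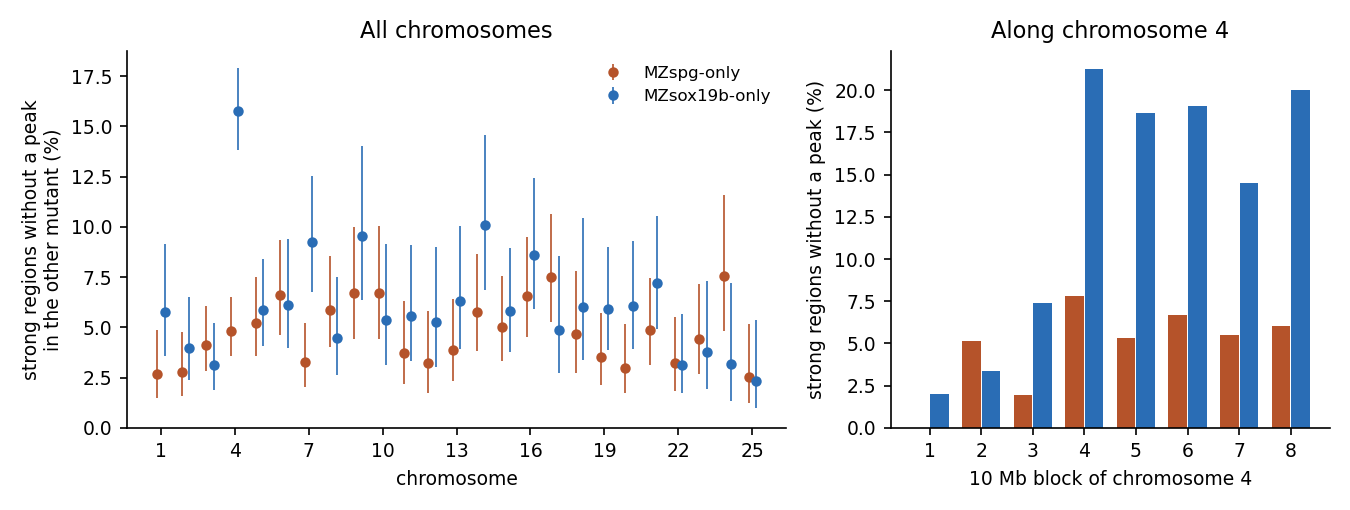
Left, percent of strong regions on each chromosome (horizontal axis) without any peak in the other mutant, with Wilson 95% intervals. Right, the same share in consecutive 10 Mb blocks of chromosome 4. MZsox19b-only regions (blue) stand at 15.8% on chromosome 4, above every other chromosome, and between 14.5% and 21.3% in the blocks from the fourth on, while MZspg-only peaks (orange) reach 7.81% at most.

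The marks of the members on chromosome 4 differed between the sets as well. Of the 40 MZspg-only peaks there, 10 had WT H3K27ac, against 89.2% of 768 shared MZspg peaks. MZspg H3K4me3 overlapped 29 of the 40 (72.5%), close to the 72.4% of the shared peaks, so H3K4me3 was not rarer in the members on this chromosome. Of the 194 MZsox19b-only regions there, 95.9% had WT H3K27ac and 46.9% had MZsox19b H3K4me3, against 99.7% and 72.7% of 1036 shared regions. Outside chromosome 4, WT H3K27ac overlapped 51.6% of 428 MZspg-only peaks and 86.9% of 396 MZsox19b-only regions, and H3K4me3 of the same genotype overlapped 38.1% and 42.9%. The shared regions outside chromosome 4 had WT H3K27ac at 97.7% and 99.1% and H3K4me3 of the same genotype at 73.7% and 84.2%. The contrast between the sets in WT H3K27ac was thus present with and without this chromosome.

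Members also lay next to each other. Another member of the same set was within 10 kb for 26.3% of MZspg-only peaks and 26.8% of MZsox19b-only regions. The largest group of MZsox19b-only regions spanned chr4:42623234-42659872 with 14 members at a median spacing of 1488 bp. Their enrichment ranged from 12.8 to 27.8 in replicate 1 and from 8.71 to 28.0 in replicate 2, and all 14 had WT H3K27ac of 5.25-fold to 11.997-fold. A group of 13 at chr7:43041321-43079789 had 10.2-fold to 20.0-fold enrichment in replicate 1 and 7.89-fold to 23.7-fold in replicate 2. WT H3K27ac covered all 13 at 1.57-fold to 5.56-fold, and 11 had H3K4me3 in MZsox19b and in WT, with none in MZspg. The largest MZspg-only group, at chr15:19976402-19987956, held 6 peaks of 6.55-fold to 8.84-fold enrichment, all with WT H3K27ac of 2.62-fold to 3.75-fold. A group of 5 at chr3:3446921-3462181 had 7.15-fold to 11.2-fold enrichment, and 3 of its peaks had WT H3K27ac. Another group of 5 at chr14:42157270-42171219 had 6.46-fold to 15.5-fold enrichment, and 1 of its peaks had WT H3K27ac. A further group of 5 lay at chr19:46888538-46910282.

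Shared regions were then compared by rank. Merging the 3 lists gave 46844 regions with a peak in each, of which 12516 held a strong peak of at least 1 library. The rank shift of a region is the log2 ratio of its ranks in the compared lists among the 46844 regions. The median absolute shift was 0.42 between the MZsox19b replicates, 0.98 between MZspg and replicate 1, and 1.13 between MZspg and replicate 2. The MZspg library thus differed from each replicate by more than the replicates differed from each other. A shift beyond 2.31, which 99% of replicate shifts did not reach, was seen at 14.6% of regions against replicate 1 and at 18.3% against replicate 2. The replicates themselves were uneven in this respect, since 112 of the 126 regions beyond the threshold ranked higher in replicate 2.

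Requiring the same direction against both replicates, 597 regions ranked higher in MZspg, 4.77% of those compared, and 831 ranked higher in MZsox19b, 6.64%. In the first set the median enrichment was 13.5-fold in MZspg against 3.61-fold and 3.31-fold in the replicates, and 445 of the 597 were strong in MZspg and in neither replicate. In the second it was 3.42-fold in MZspg against 19.4-fold and 17.5-fold, and 679 of the 831 were strong in both replicates and not in MZspg. Most called regions were thus strong in one mutant and below strong in the other. The call itself favours this, since it required a strong peak in at least 1 list and a large ratio of ranks.

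**Figure D4:**
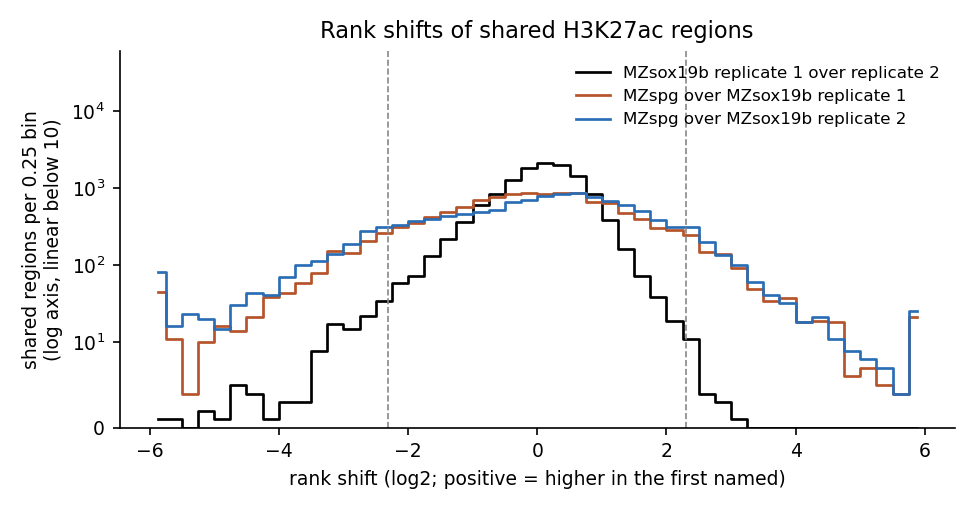
Number of strong shared regions (vertical axis, logarithmic above 10 and linear below) in bins of 0.25 of the log2 rank shift (horizontal axis, end bins include all larger shifts). The black line compares the MZsox19b replicates, the coloured lines MZspg with each replicate, and dashed lines mark the threshold of 2.31. Both comparisons with MZspg are wider than the replicate comparison (median absolute shifts of 0.98 and 1.13 against 0.42).

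H3K4me3 ranks moved with H3K27ac ranks at these regions. Where both mutants had H3K4me3, its rank was higher in MZspg at 89.4% (235 of 263) of the regions whose H3K27ac ranked higher in MZspg, at 4.86% (9 of 185) of those ranking higher in MZsox19b, and at 49.3% of 7284 regions called in neither direction. Presence was lower at both sets than at uncalled regions, of which 77.2% had H3K4me3 in MZsox19b and 67.3% in MZspg. At the second set the shares were 62.3% and 23.1%, and at the first 48.1% and 50.4%. The MZsox19b H3K4me3 list is the longer, and at uncalled regions too its share was the higher.

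WT again stood differently towards the sets. WT H3K27ac overlapped 86.1% of regions ranking higher in MZspg and 98.0% of those ranking higher in MZsox19b, against 97.3% of the rest. Ranked among regions that also had a WT peak, the WT rank was nearer to MZspg than to the mean of the MZsox19b replicates at 36.0% (185 of 514) of the first set, 60.1% (489 of 814) of the second and 50.4% of the rest. At the first set, WT lay a median of 1.95 log2 units below MZspg and 1.01 above MZsox19b. At the second, WT lay a median of 1.36 above MZspg and 1.81 below MZsox19b, or 1.51 and 1.64 without the dense megabase of chromosome 5. In both sets the median WT rank was between the mutants, and on this scale nearer to the mutant in which the region was weaker. The sets were chosen for ranks that differ between the mutants, so a WT rank between them is favoured by the choice. The log2 scale spreads the top ranks most, and WT ranks were not compared on another scale. With sets called on percentile ranks instead, WT H3K27ac overlapped 79.7% of 686 regions ranking higher in MZspg. It then overlapped 93.8% of 1255 ranking higher in MZsox19b.

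One array of evenly spaced peaks held a large part of the second set. Of the 831 regions, 106 lay between 43 and 44 Mb of chromosome 5, out of 122 strong shared regions there. They spanned chr5:43102395-43674271, with a median width of 800 bp and a median spacing of 1230 bp between starts (quartiles 1180 and 1286). Median enrichment was 5.76 in MZspg, 25.1 and 20.0 in the MZsox19b replicates and 7.50 in WT, and WT H3K27ac was present at all 106, H3K4me3 at 10 in MZsox19b and at 0 in MZspg (a limit of 2.83%). Each was counted in the 831 although they lie at 1 locus. The limit treats the 106 as independent, which neighbouring peaks of 1 array are not. Without this megabase, 725 regions ranked higher in MZsox19b, 5.85% of the remainder, and 597 in MZspg. The share with MZsox19b H3K4me3 was then 70.1% and that with MZspg H3K4me3 26.5%. WT ranked nearer to MZspg at 54.7% (387 of 708) of the set, against 60.1% with the megabase.

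Other dense places were fewer. Between 14 and 15 Mb of chromosome 2, 20 of 36 strong shared regions ranked higher in MZsox19b, with median enrichments of 3.49 in MZspg, 21.0 and 22.3 in the replicates and 8.73 in WT. H3K4me3 was present at 19 of the 20 in MZsox19b and in WT, and at 3 in MZspg. Among regions ranking higher in MZspg, the megabase with the most was 30 to 31 Mb of chromosome 4, with 18 of 57. The next by number, 21 to 22 Mb of chromosome 17, held 7 of 11. On chromosome 4 the 18 had a median enrichment of 13.6 in MZspg and 5.38 and 5.63 in the replicates, 9 had WT H3K27ac, and 7 had H3K4me3 in MZspg with none in MZsox19b or WT. Chromosome 4 as a whole held 32.9% of the regions ranking higher in MZsox19b and 9.38% of those ranking higher in MZspg, against 12.7% of the rest.

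The regions named by size of shift fell into 2 kinds. Because the scale is a ratio of ranks, it favours the top of a list, and 129 of the 597 regions ranking higher in MZspg were strong in all 3 libraries. The first of them, chr25:26252880-26254953, was 61.8-fold enriched in MZspg and 25.5-fold and 20.7-fold in the replicates. Others of this kind were chr22:6162543-6165463 (62.9-fold against 33.1-fold and 22.1-fold) and chr20:2126846-2130133 (59.7-fold against 24.997-fold and 24.4-fold). In contrast, chr8:30320612-30322752 was 30.2-fold enriched in MZspg and 1.97-fold and 2.93-fold in the replicates, with H3K4me3 of 31.5-fold in MZspg, 4.66-fold in MZsox19b and 19.4-fold in WT. The fifth and sixth were chr8:22370515-22374505 (45.5-fold against 14.9-fold and 14.7-fold) and chr3:19685681-19691242 (39.3-fold against 12.6-fold and 8.33-fold).

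Of the 831 regions ranking higher in MZsox19b, 146 were strong in all 3 libraries, but the named ones were all of the second kind. The region chr4:63471099-63474214 was 2.22-fold enriched in MZspg, 50.2-fold and 53.6-fold in the replicates and 11.5-fold in WT, with H3K4me3 of 42.4-fold in MZsox19b, 14.0-fold in WT and no MZspg peak. At chr4:54214342-54223336 the enrichment was 3.65-fold in MZspg against 49.3-fold and 44.9-fold, and at chr1:58274582-58280222 it was 5.44-fold against 68.0-fold and 53.1-fold. The latter had H3K4me3 of 164.9-fold in MZsox19b, 63.3-fold in WT and 11.4-fold in MZspg. At chr4:42169343-42171668 H3K27ac was 4.27-fold against 44.9-fold and 35.7-fold, and H3K4me3 149.2-fold in MZsox19b, 79.8-fold in WT and 4.92-fold in MZspg. The other 2, chr5:43134120-43136190 and chr5:43186684-43187584, belonged to the array of chromosome 5. Called again when ranks were compared as percentiles, a scale that favours the middle of a list, were 1 of the 6 named regions of the first set and 2 of the 6 of the second, and 360 of the 597 and 486 of the 831 regions in all. WT H3K27ac at the 6 regions of the second set ranged from 8.08-fold to 22.6-fold.

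**Figure D5:**
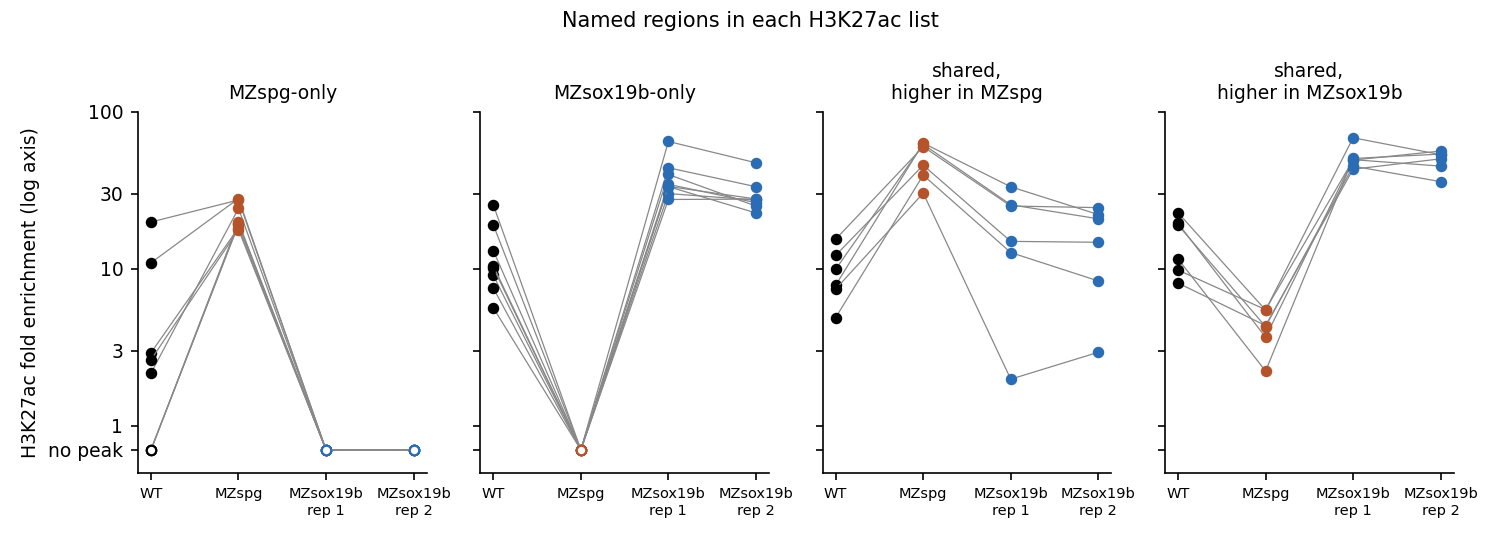
H3K27ac fold enrichment (vertical axis, logarithmic) of each named region in the WT, MZspg and MZsox19b lists, 1 line per region, with open symbols at the foot for a list without a peak there. All 8 MZsox19b-only regions have a WT peak (5.61-fold to 25.4-fold), whereas 3 of the 8 MZspg-only peaks have none.

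Regions absent from one mutant and regions of lower rank in it were found near each other. A shared region ranking higher in MZsox19b lay within 10 kb of 19.0% (112 of 590) of MZsox19b-only regions, against 4.74% of shared strong MZsox19b regions that were not themselves called. A shared region ranking higher in MZspg lay within 10 kb of 0.339% (2 of 590), against 1.85%. For MZspg-only peaks, a shared region ranking higher in MZspg lay within 10 kb of 10.5% (49 of 468), against 3.36% of shared strong MZspg peaks. One ranking higher in MZsox19b lay within 10 kb of 1.92% (9 of 468), close to the 1.84% of the shared peaks. In these counts, neighbouring regions differed between the mutants in the same direction more often than in opposite directions. Both kinds of region came from the same H3K27ac lists, and neighbours at a single locus were each counted. The agreement in direction is therefore not an independent result. Part of the agreement can also restate the gathering of both MZsox19b sets on chromosome 4. Beyond 30 Mb there, 18.1% (246 of 1362) of strong shared regions ranked higher in MZsox19b. Nearness was not counted apart from that chromosome.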

How the data were processed

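Peak lists of 4 H3K27ac and 3 H3K4me3 libraries were analysed, with sample titles giving the groups. The authors mapped paired-end reads to danRer11 with Bowtie2 (version 2.3.2.2). According to the study's reporting summary, peaks were called with MACS2 over pooled inputs. The WT and MZspg H3K27ac libraries pooled material of 2 ChIP experiments each, while every other library came from 1. The deposited fold enrichment is the ratio of pileup to local background at the summit. Significance is deposited as −log10 p and −log10 q, and the authors' score column is 10 times the −log10 q. A further deposited column places the summit within the peak.

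Overlap meant at least 1 bp, on chromosomes 1 to 25. MZsox19b-only regions were merged from strong peaks of both replicates. Named regions were the 8 highest members of each set and, in each direction, the 6 shared regions with the largest smaller shift against the replicates. Counts of 0 are given with a limit of 3 counts, and shares with Wilson 95% intervals. The members, the rules and the alternatives were chosen with earlier results of these data known. No p-values were computed. Genes, motifs and sequences were not analysed here, since the gene tables used the build GRCz12tu. Inputs were not used here. Scripts were tested on simulated lists (Python 3.11.15, numpy 2.4.6, pandas 2.3.3).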

Additional observations from a re-analysis of the deposited data

Results flagged for a closer look

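Peaks on sequences outside chromosomes 1 to 25 took no part in the comparison. Past the fold enrichment of the 10000th chromosomal peak of their library, 139 of 1559 MZspg peaks there, 8.92%, had no peak in either MZsox19b replicate, and 128 of 1144 regions strong in both MZsox19b replicates, 11.2%, had no MZspg peak. They are listed because they are differences in data that the comparison did not use. These values had no replicate of MZspg, and the methods of the study state that unplaced sequences were left out of its own analysis.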

How the results depend on the processing

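The numbers of members changed with the number of peaks called strong, and the role of read depth was not tested. The number of MZspg-only peaks also changed with how list length was matched. Lists of equal size gave 540 of 10000 MZspg-only and 590 of 8089 MZsox19b-only regions, with WT H3K27ac at 51.1% and 89.3%. The latter count could not change, because the MZspg list is the shortest of the H3K27ac lists. With the 5000 highest peaks, 95 of 5000 MZspg peaks and 155 of 4034 MZsox19b regions were members. WT H3K27ac overlapped 94.2% and own H3K4me3 56.1% of the latter. Of 6777 shared regions, 287 ranked higher in MZspg and 492 in MZsox19b, against 597 and 831 of 12516 in the main setting. With the 20000 highest, 1977 of 20000 MZspg peaks were members (WT H3K27ac 41.4%, own H3K4me3 31.3%). So were 2136 of 15715 MZsox19b regions (80.01% and 34.7%), and 989 of 22274 shared regions ranked higher in MZspg. Ranking by −log10 q gave 759 MZspg-only peaks among 10000 (WT H3K27ac 74.2%, own H3K4me3 65.6%). It gave 1080 and 1436 shifted regions among 12182. Lists of equal covered length gave 1246 MZspg-only peaks (65.7% and 36.5%) and 733 MZsox19b-only regions (91.0% and 46.4%). Without chromosome 4, WT H3K27ac overlapped 84.4% of MZsox19b-only regions. Shifts beyond 95% of replicate shifts numbered 1660 and 1973, and those beyond all but 1 in 1000 replicate shifts numbered 61 and 85. With percentile ranks, 1255 of 12516 regions ranked higher in MZsox19b.

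Leaving out either MZsox19b replicate gave 539 to 617 MZspg-only peaks with WT H3K27ac at 52.3% to 53.8% and own H3K4me3 at 38.4% to 42.1%. It gave 875 to 950 MZsox19b-only regions among 10000, since 1 replicate then sufficed. Of these, 86.5% to 88.2% had WT H3K27ac and 42.0% to 42.7% own H3K4me3. Regions ranking higher in MZspg were 779 to 898, and in MZsox19b 1044 to 1394. The higher counts of MZsox19b-only and of shifted regions (950, 898 and 1394) were those without replicate 1. Of the alternatives added after seeing the data, own H3K4me3 in MZsox19b-only regions was 26.3% with H3K4me3 lists of equal size and 39.0% within 500 bp at the summit. In every setting run, the MZspg-only share with WT H3K27ac was below the MZsox19b-only share. Where the first paragraph gives another value, the cause was not tested beyond the change in peaks admitted. The alternatives on motif windows and gene distance were not run for want of a genome of the files' build. No paired analysis was possible because MZspg had 1 library, and the replicate numbers are shared with inputs that have no peak list here.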
